A study of Saccharomyces cerevisiae with 90 samples.

Results

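Glycerol metabolism in budding yeast was followed through 8 genes, GPD1, GPD2, GPP1, GPP2, STL1, GUT1, GUT2 and GCY1, out of 5794 genes measured in either of the series' 2 tables of array values. The genes were taken by symbol, and each had 1 probe set in each table. Yeast makes glycerol from the glycolytic intermediate dihydroxyacetone phosphate, which a glycerol-3-phosphate dehydrogenase reduces and a phosphatase then strips of its phosphate. Glycerol holds water in the cell under osmotic stress, when the kinase Hog1 raises transcription of several of these genes, and its synthesis also consumes excess NADH. Glycerol taken up from outside is burned through a kinase and a mitochondrial dehydrogenase, and this route is repressed by glucose.

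The series measured mRNA with Affymetrix arrays. In its colony table, 70 arrays cover 10 h growth of strains with the background G85 (no genotype is given for replicate 6 of the yeast form). The deletion strains include 6 labelled as missing a single factor, tec1::bcKanMX4 and cup9::bcKanMX4 (5 arrays each), and sfl1::bcKanMX4, sok2::bcKanMX4, skn7::bcKanMX4 and yap6::NatMX4 (3 arrays each). All 6 genes encode transcription factors. By their labels, 13 more strains carry 2 of these deletions (3 arrays each), and the filamentous-form wild type has 3 arrays. All of these grew on synthetic low-ammonium dextrose (SLAD) with uracil and histidine, on which this background forms filaments of elongated cells. The yeast-form wild type (6 arrays) grew on synthetic complete dextrose (SCD), so that form and medium changed together.

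The second table holds 20 arrays of MATa/alpha diploids from synthetic complete (SC) medium, with altered signalling through Ras and cyclic AMP (cAMP). Ras stimulates adenylate cyclase, the cAMP made activates protein kinase A, Ira1 and Ira2 switch Ras off, and Pde2 breaks cAMP down. The mutants, 2 arrays each, were ira1::HIS3/ira1::LEU2 and ira2::HIS3/ira2::LEU2 with the plasmid pRS316, the same ira1 deletion with pRS316-IRA1RA (ira1RA, an arginine replaced by alanine), RAS2v19 (the dominant active allele, on a plasmid) and RAS2a22 (the dominant negative allele, on a plasmid). Diploids labelled ras1::HIS3, ras2 deleted and pde2::kanR on both homologues received 0, 0.5, 1 or 2 mM cAMP (2, 1, 1 and 2 arrays). The 0 mM arrays came from another strain number, carrying pRS315, than the arrays with cAMP. The wild type was ura3-52/ura3-52 with pRS316 (4 arrays).

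Some arrays stood apart or went against their labels. In the colony table the deleted gene read below every filamentous wild-type array in all arrays labelled as lacking SFL1 (18), SOK2 (18), SKN7 (15) and YAP6 (12). TEC1 did so in 16 of 17 arrays, not in the array labelled tec1 replicate 1. CUP9 did so in 16 of 20, not in the array labelled cup9 replicate 4 nor in any of the 3 labelled cup9-yap6. In SC medium, RAS2 (1 to 3) and PDE2 (1) read at or near the lowest deposited intensity in the 6 arrays labelled ras1 ras2 pde2, but RAS1 read 136 to 364 there, against 23 to 41 in the wild type. IRA1 read 5 and 1 in ira1 against 26 to 65 in the wild type, and IRA2 read 1 in both ira2 arrays against 1 to 25 in the wild type, where it was dim. RAS2 read 650 and 734 in RAS2a22 and 64 and 31 in RAS2v19, against 46 to 111 in the wild type. It was above every wild-type array in RAS2a22 and not in RAS2v19. The 2 RAS2a22 arrays held the identical whole number for 21.7 percent of the 2344 genes with an intensity of at least 50 in either of them. Other pairs of replicates shared 0.452 to 2.09 percent. The RAS2a22 arrays may therefore not be independent, and each call of a glycerol gene that rests on them is given also with the 2 averaged into 1 sample. Wild-type arrays 3 and 4 correlated at 0.91 with each other and at 0.76 or below with arrays 1 and 2. Arrays 3 and 4 had 6.49 and 8.60 percent of genes at 1, as did the cAMP series (3.79 to 8.54 percent), whereas arrays 1 and 2 (20.9 and 19.1 percent) were nearer to the 10 arrays of the other mutants (13.6 to 23.8 percent). The labels name no batch.

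Between the forms of the wild type, GPD1, GPP2, STL1 and GUT1 were lower in filaments. Of the 8 genes, 4 were lower and 0 higher in filamentous colonies (limma, Benjamini-Hochberg adjusted p under 0.05 over all genes; log2 changes are filamentous minus yeast form, ± SE). Over all 5562 genes 44.9 percent were called, 23.2 percent lower, so that a count of 4 is read against a wide background. The median change of the 8 was -0.46, beside 0.05 over all genes.

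GPD1, the NAD-dependent glycerol-3-phosphate dehydrogenase that opens the pathway and responds to osmotic stress, read 8.62, 8.59 and 8.61 on the log2 scale in filamentous colonies. In yeast-form colonies its lowest, median and highest levels were 11.19, 11.83 and 11.97. The 2 forms were far apart and the filamentous arrays almost coincided. The level was 8.73-fold lower in filaments (-3.13 ± 0.26, adjusted p = 1.65e-14). Its isozyme GPD2, linked to redox balance without oxygen, averaged 8.46 ± 0.13 (SD, n = 3) in filamentous and 8.31 ± 0.29 (SD, n = 6) in yeast-form colonies, and the arrays overlapped (0.15 ± 0.23, adjusted p = 0.609).

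Of the near-identical glycerol-3-phosphate phosphatases, GPP2 is the stress-responsive copy. It read 5.92, 6.05 and 6.07 in filaments, against 7.80, 7.97 and 8.23 (lowest, median, highest) in the yeast form. The groups did not overlap, and GPP2 was lower in filaments (-1.99 ± 0.20, adjusted p = 6.66e-12). GPP1, the main copy in unstressed cells, averaged 12.15 ± 0.08 in filaments and 11.97 ± 0.13 in the yeast form (SD, n = 3 and 6), and did not pass (0.17 ± 0.13, adjusted p = 0.279). It passed under quantile normalization, where it was higher in filaments (0.32, adjusted p = 0.0429). Cross-hybridisation between the copies was not tested.

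STL1, the proton symporter that brings glycerol into the cell, read 2.99, 3.24 and 3.14 in filaments, against 4.30, 5.35 and 5.53 (lowest, median, highest) in the yeast form. All filamentous arrays lay below all yeast-form arrays (-2.06 ± 0.20, adjusted p = 5.34e-12). These are dim levels: over all arrays the mean of STL1 stood at the 8.55th percentile of genes.

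Glycerol kinase, GUT1, read 7.19, 6.68 and 7.15 in filaments, against 7.17, 7.48 and 7.64 (lowest, median, highest) in the yeast form. It was lower in filaments (-0.46 ± 0.12, adjusted p = 0.0013) although 1 filamentous array lay within the yeast-form range. The call was lost without filamentous replicate 2 (adjusted p = 0.0624). GUT2, the mitochondrial glycerol-3-phosphate dehydrogenase, read 6.63, 6.46 and 6.39 in filaments, against 6.71, 7.02 and 7.13 in the yeast form. The arrays did not overlap, but the change did not pass in the fit of all groups (-0.46 ± 0.23, adjusted p = 0.102) and passed in a fit of these 2 groups alone (adjusted p = 0.00334). GCY1, a glycerol dehydrogenase of the route through dihydroxyacetone, averaged 6.26 ± 0.25 and 6.50 ± 0.12 (SD, n = 3 and 6) in filaments and the yeast form and did not pass (adjusted p = 0.244). In RNA from whole colonies, fewer cells of a type and less RNA per cell cannot be told apart.

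Genes around the pathway are described from 4 lists. Their counts are read beside the 44.9 percent of all genes called between the forms, 23.2 percent lower. Of 13 other genes of glycerol metabolism and transport, 7 were lower and 0 higher in filaments (median -0.41). They included GUP1, a membrane protein tied to glycerol uptake (-1.15 ± 0.17, adjusted p = 3.17e-07), and the external NADH dehydrogenases NDE1 (-1.42 ± 0.28, adjusted p = 4.81e-05) and NDE2 (-0.82 ± 0.22, adjusted p = 0.00251). Of 13 measured targets of osmotic stress, 8 were lower and 0 higher (median -1.01), among them the membrane-protecting HSP12 (-3.11 ± 0.43) and the transaldolase NQM1 (-2.28 ± 0.15). Of 25 components of the Hog1 pathway, 4 were lower and 3 higher (median 0.09), and HOG1 itself was lower (-0.66 ± 0.11). Among 8 regulators of glycerol use, 2 were lower and 2 higher, with ADR1, the activator of genes for non-fermentable carbon, lower (-1.52 ± 0.22). The markers of filaments and low ammonium moved too: 5 of 6 were higher in filaments, and their summed log2 level was 57.0 to 58.3 there, against 43.6 to 45.8 in the yeast form. Of 6 meiosis markers 0 were called (summed level 22.3 to 22.7 against 21.7 to 22.8). The part of the medium in these changes was not tested.

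**Figure D1:**
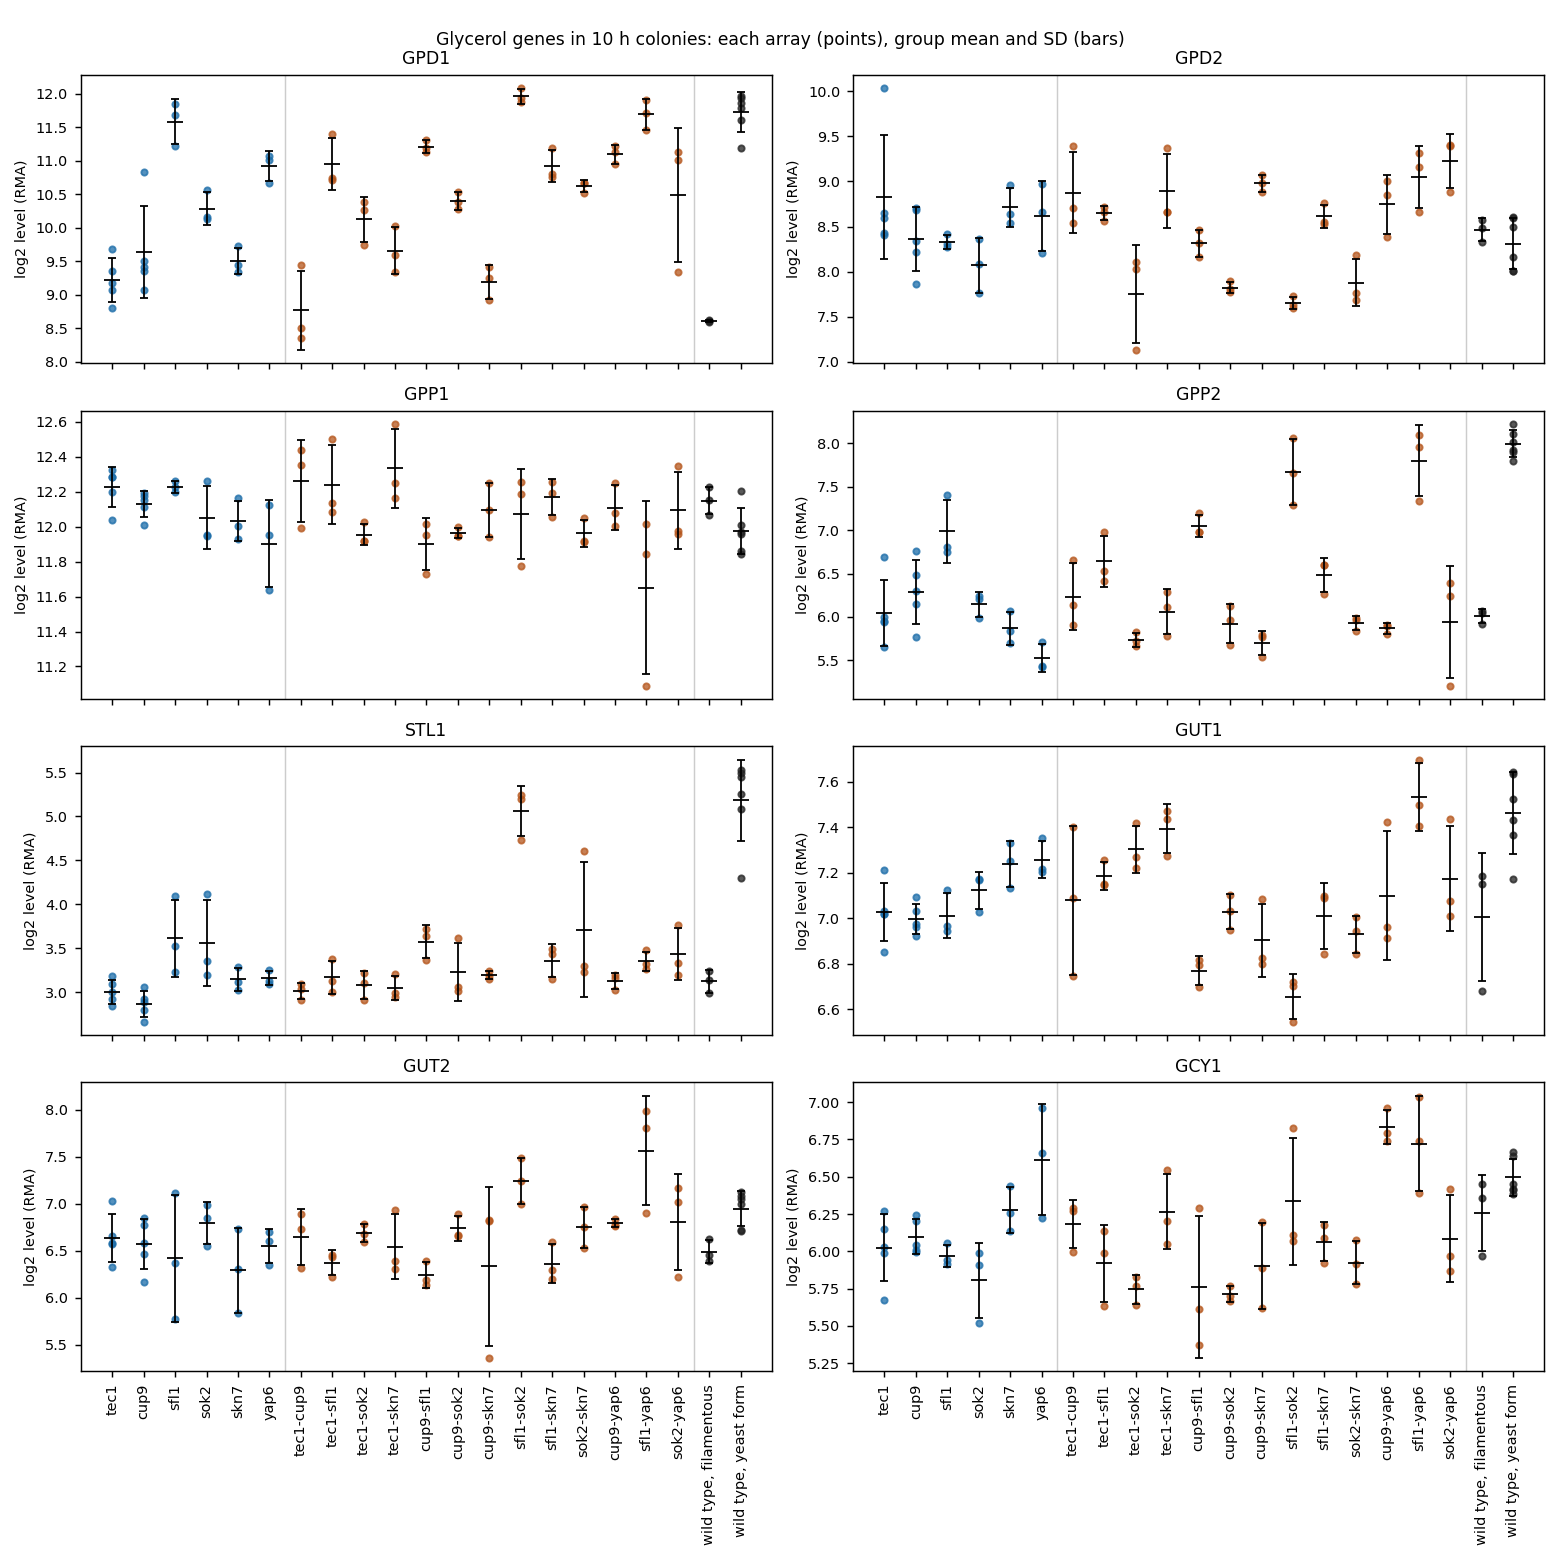
Log2 level of each glycerol gene on the vertical axis, 1 panel per gene, in each array (points) of the 21 colony groups, with the group mean and SD. The 6 strains with 1 deletion come first, then the 13 with a pair, the filamentous wild type and the yeast form; GPD1 is lowest in the filamentous wild type (mean 8.60) and highest in sfl1-sok2 (mean 11.97).

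Across the deletion strains on low ammonium, GPD1 was the member that changed most often. Its level was above every filamentous wild-type array in 59 of the 61 arrays of deletion strains and below them in the other 2, both of tec1-cup9. In the 6 strains with 1 deletion, 5 of 48 member changes passed, all of them higher than in the filamentous wild type (6.68 percent of the changes of all genes were higher) and 4 of them of GPD1. In either direction 14.5 percent of the changes of all genes passed (0.126 percent in tec1, 0.342 in cup9, 24.8 in sfl1, 1.17 in sok2, 37.1 in skn7 and 23.6 in yap6). All comparisons use the same 3 wild-type arrays, whose GPD1 levels differed by an SD of 0.02, so the changes of the strains are not independent of each other.

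Loss of SFL1, a repressor of filament genes, gave GPD1 levels of 11.22, 11.69 and 11.86, against 8.60 ± 0.02 (SD, n = 3) in the filamentous wild type. These levels lie within the range of the yeast form. The change was 2.98 ± 0.30 (7.90-fold higher, adjusted p = 4.44e-11). In yap6, lacking a factor of the AP-1 family, GPD1 read 11.08, 11.01 and 10.66 (2.31 ± 0.30, adjusted p = 5.9e-08). In sok2, lacking a repressor that acts in the protein kinase A pathway, it read 10.13, 10.56 and 10.16 (1.68 ± 0.30, adjusted p = 0.000278). The 3 strains did not overlap with the wild type in any array.

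In skn7, lacking a response regulator of osmotic and oxidative stress, GPD1 read 9.72, 9.34 and 9.45 (0.90 ± 0.30, adjusted p = 0.017), and the call was lost without skn7 replicate 1 (adjusted p = 0.103). In cup9 it read 9.51, 10.83, 9.07, 9.42 and 9.35. All 5 arrays lay above the wild type, yet the change did not pass (1.03 ± 0.27, adjusted p = 0.0644). It passed without cup9 replicate 3 (adjusted p = 0.0204), was 0.73 and did not pass without replicate 2, the highest array, and leaving out the array labelled cup9 replicate 4 together with tec1 replicate 1 gave 1.08 (adjusted p = 0.0635). In tec1 it read 9.36, 8.80, 9.18, 9.07 and 9.68, all above the wild type, and did not pass (0.61 ± 0.27, 95% interval 0.07 to 1.16, adjusted p = 0.475; 0.58 without those 2 arrays).

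GPP2 was the only other member called in a strain with 1 deletion. It read 6.75, 7.40 and 6.81 in sfl1, against 5.92, 6.05 and 6.07 in the filamentous wild type, and was higher (0.98 ± 0.23, adjusted p = 0.00163). In yap6 it read 5.43, 5.71 and 5.43, below the wild type in each array, without passing (-0.49 ± 0.23, adjusted p = 0.114; 0.00715 in a fit of the 2 groups alone). GPD1 and GPP2 thus had opposite signs in yap6. The changes of GPD2, GPP1, STL1, GUT1, GUT2 and GCY1 in the 6 strains ran from -0.45 to 0.49 and 0 of 36 passed.

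In the 13 strains with a pair of deletions, 26 of 104 member changes passed (23 higher, 3 lower), against 19.6 percent of the changes of all genes in either direction and 9.93 percent higher. GPD1 gave 11 of the 26, all higher. Its share of comparisons called was thus 11 of 13, where between 1.80 and 46.6 percent of all genes were called. That background was 1.80 percent in tec1-cup9, 18.8 in tec1-sfl1, 10.0 in tec1-sok2, 31.9 in tec1-skn7, 36.5 in cup9-sfl1, 10.6 in cup9-sok2 and 14.1 in cup9-skn7. In the others it was 21.4 percent in sfl1-sok2, 19.4 in sfl1-skn7, 7.34 in sok2-skn7, 22.0 in cup9-yap6, 46.6 in sfl1-yap6 and 14.9 in sok2-yap6.

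The highest GPD1 levels were those of sfl1-sok2, 11.93, 12.09 and 11.87 (3.36 ± 0.30 over the filamentous wild type, adjusted p = 5.92e-13), and of sfl1-yap6, 11.46, 11.91 and 11.72 (3.09 ± 0.30, adjusted p = 2.69e-12). In the other pairs lacking SFL1 the levels were, for cup9-sfl1, 11.31, 11.19 and 11.13 (2.61 ± 0.30), for tec1-sfl1 10.71, 10.75 and 11.40 (2.35 ± 0.30) and for sfl1-skn7 10.81, 11.19 and 10.76 (2.32 ± 0.30). All 6 strains that lack SFL1, all 6 that lack SOK2 and all 4 that lack YAP6 were called higher. Of the strains without the sfl1 deletion, 9 of 13 were called.

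In the pairs with a yap6 or sok2 deletion and SFL1 present, GPD1 was called in all 5. The levels were 11.13, 11.22 and 10.95 in the arrays labelled cup9-yap6 (2.49 ± 0.30), whose mean lay above those of tec1-sfl1 and sfl1-skn7, and 11.00, 9.34 and 11.13 in sok2-yap6 (1.89 ± 0.30), where replicate 2 stood apart. They were 10.67, 10.67 and 10.52 in sok2-skn7 (2.02 ± 0.30), 10.38, 10.54 and 10.28 in cup9-sok2 (1.80 ± 0.30) and 9.75, 10.38 and 10.26 in tec1-sok2 (1.52 ± 0.30). The adjusted p of these 5 changes was at most 0.000622.

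The pairs drawn from tec1, cup9 and skn7 had the smallest GPD1 changes. In tec1-skn7 GPD1 read 9.34, 9.60 and 10.03 (1.05 ± 0.30, adjusted p = 0.00738), a call lost without tec1-skn7 replicate 3 (adjusted p = 0.0513). In cup9-skn7 it read 9.41, 9.25 and 8.91, above the wild type without passing (0.59 ± 0.30, adjusted p = 0.166; 0.0212 in a fit of these 2 groups alone). In tec1-cup9 it read 8.50, 8.35 and 9.45, on either side of the wild type (0.16 ± 0.30, adjusted p = 0.855). Ordered by mean, the 21 groups formed a ladder in which the arrays of each of the 20 neighbouring pairs overlapped.

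GPP2 was called higher in 5 of the 6 strains that lack SFL1, where group means were 6.49 to 7.80, and in 0 of the 13 that keep it, where they were 5.52 to 6.29. In sfl1-yap6 it read 8.10, 7.34 and 7.96 (1.79 ± 0.23, adjusted p = 4.49e-09) and in sfl1-sok2 8.06, 7.66 and 7.29 (1.66 ± 0.23, adjusted p = 1.42e-07). In cup9-sfl1 it read 6.98, 7.20 and 6.98 (1.04 ± 0.23, adjusted p = 0.000683). These arrays all lay above the filamentous wild type. The call in tec1-sfl1 was weak, with levels of 6.53, 6.42 and 6.98 (0.63 ± 0.23, adjusted p = 0.0466). It was lost without any of the 3 wild-type arrays or without tec1-sfl1 replicate 1 or 3 (adjusted p = 0.0826 to 0.196), and when the fit was blocked by replicate number (adjusted p = 0.0559). In sfl1-skn7 GPP2 read 6.26, 6.60 and 6.60 and did not pass (0.48 ± 0.23, adjusted p = 0.132). In a fit of these 2 groups alone it passed (adjusted p = 0.0296). Whether the strains with and without the deletion differ in how often GPP2 was called was not itself tested.

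STL1 was called in 1 of the 13 strains. It read 4.73, 5.20 and 5.24 in sfl1-sok2, against 2.99, 3.24 and 3.14 in the filamentous wild type (1.94 ± 0.24, adjusted p = 6.02e-09). The arrays of sfl1-sok2 were within the range of the yeast form. In sfl1 alone STL1 read 3.22, 3.52 and 4.09 and in sok2 alone 3.36, 3.20 and 4.11, and neither change passed (adjusted p = 0.117 and 0.506). The other 12 pairs changed by -0.11 to 0.59. Among them cup9-sfl1 passed in a fit of the 2 groups alone (0.45, adjusted p = 0.048).

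The genes of glycerol use moved in few strains. GUT2 was higher in sfl1-yap6, with 7.99, 6.90 and 7.81 against 6.63, 6.46 and 6.39 in the filamentous wild type (1.07 ± 0.27, adjusted p = 0.000788). In sfl1-sok2 it read 7.49, 7.24 and 7.00 (0.75 ± 0.27, adjusted p = 0.0376), a call lost without any of the 3 wild-type arrays or sfl1-sok2 replicate 1 or 2 (adjusted p = 0.058 to 0.199). GUT1 was higher in sfl1-yap6, with 7.50, 7.40 and 7.70 against 7.19, 6.68 and 7.15 in the wild type (0.53 ± 0.13, adjusted p = 0.000931). All of these GUT1 arrays lay above the wild type. Its rise in tec1-skn7 (7.47, 7.27 and 7.44, 0.39 ± 0.13, adjusted p = 0.0234) was lost without wild-type replicate 2 (0.235) or tec1-skn7 replicate 1 or 3 (0.0842 and 0.0648), and in a fit of the 2 groups alone (0.0714). The GUT1 change was negative and not called in sfl1-sok2 (-0.35) and cup9-sfl1 (-0.24). Without wild-type replicate 2 GUT1 was called lower in both (-0.51, adjusted p = 0.0103, and -0.40, adjusted p = 0.0301).

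GCY1 passed in 3 pairs in the fit of all groups, each narrowly. It was higher in the arrays labelled cup9-yap6, with 6.74, 6.79 and 6.96 against 6.45, 6.36 and 5.97 in the filamentous wild type (0.57 ± 0.19, adjusted p = 0.0242), lost without wild-type replicate 3 (0.173) or cup9-yap6 replicate 3 (0.0889). In sfl1-yap6 it read 6.39, 7.04 and 6.74 (0.46 ± 0.19, adjusted p = 0.0417), lost without wild-type replicate 2 or 3 or sfl1-yap6 replicate 2 or 3 (0.0501 to 0.248). GCY1 was lower in cup9-sfl1, with 5.37, 6.29 and 5.61 (-0.50 ± 0.19, adjusted p = 0.0363), lost without wild-type replicate 1 or 2 or cup9-sfl1 replicate 1 or 3 (0.101 to 0.227) and under quantile normalization (0.163). In fits of the 2 groups alone the sfl1-yap6 and cup9-sfl1 calls were also lost (0.0818 and 0.132). In cup9-sok2 GCY1 passed as lower in such a fit (-0.55, 0.0257) and with genes under the 25th percentile left out (0.0481). It also passed as lower in tec1-sok2 without tec1-sok2 replicate 1 (-0.56, 0.0397).

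GPD2 passed in opposite directions in 2 pairs in the fit of all groups. In sfl1-sok2 it read 7.60, 7.63 and 7.73, all below the 8.58, 8.33 and 8.49 of the filamentous wild type (-0.81 ± 0.27, adjusted p = 0.0246). In sok2-yap6 it read 9.40, 8.88 and 9.39, all above (0.76 ± 0.27, adjusted p = 0.045). The first call was lost without wild-type replicate 1 or 3 or sfl1-sok2 replicate 1 or 2 (0.0537 to 0.0986), the second without any wild-type array or sok2-yap6 replicate 1 or 3 (0.0706 to 0.188). In fits of only the groups compared GPD2 also passed in cup9-sok2 (-0.64, adjusted p = 0.00859), sok2-skn7 (-0.59, 0.0165), cup9-skn7 (0.52, 0.0193) and sfl1-yap6 (0.58, 0.0279). It also passed in tec1-sok2 under quantile normalization (-0.85, adjusted p = 0.0417) and in sfl1-yap6 without its replicate 3 (0.78, 0.0329). GPP1 was lower in sfl1-yap6 (12.02, 11.85 and 11.09 against 12.15, 12.07 and 12.22; -0.50 ± 0.15, adjusted p = 0.00517), and without sfl1-yap6 replicate 3 the change was -0.22 (0.252). That call was also lost in a fit of the 2 groups alone (0.101). The strains sfl1-sok2 and sfl1-yap6 together held 11 of the 26 calls. Over all genes they also held many, 1189 and 2593 of the 14207 calls in the 13 pairs.

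**Figure D2:**
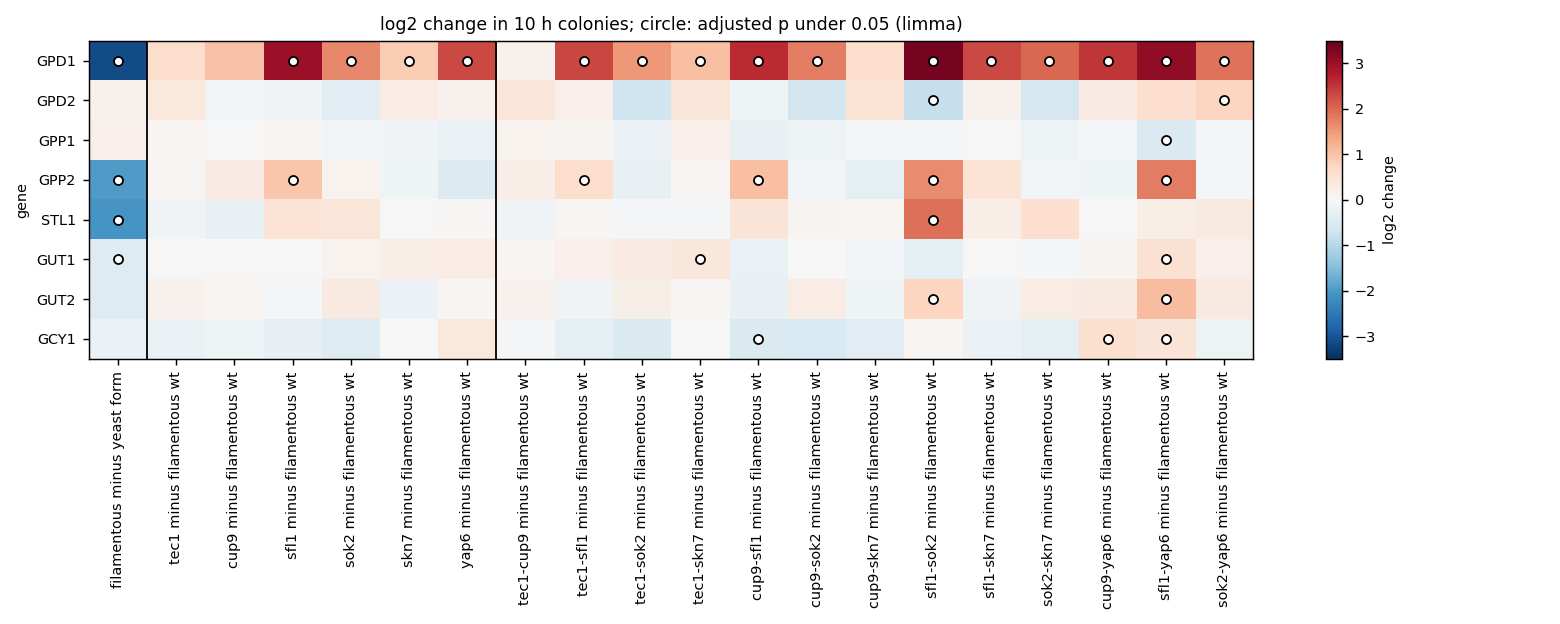
Log2 change of each glycerol gene (rows; blue lower, red higher) in the 19 deletion strains against the filamentous wild type, and in the filamentous against the yeast form. Circles mark an adjusted p under 0.05; GPD1 carries 15 of the 31 circles in deletion strains, and GPP2 carries 5, all in strains that lack SFL1.

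The neighbouring lists were counted in the same strains. Of all genes 24.8 percent were called in sfl1, 21.4 percent in sfl1-sok2 and 46.6 percent in sfl1-yap6. That share was 1.17 percent in sok2, 23.6 percent in yap6 and 37.1 percent in skn7. Of 13 targets of osmotic stress, 6 were higher and 0 lower in sfl1 (median 0.54), 10 and 0 in sfl1-sok2 (median 1.32) and 10 and 0 in sfl1-yap6 (median 0.82), against 1 higher in sok2 and 2 higher in yap6. They included DDR48, which encodes a stress-induced protein, at 3.17 ± 0.22 in sfl1, 3.69 ± 0.22 in sfl1-sok2 and 4.07 ± 0.22 in sfl1-yap6. CTT1, the cytosolic catalase, was higher in sfl1-yap6 (2.98 ± 0.41), as was the aldose reductase gene GRE3 (2.22 ± 0.25). In skn7, where GPD1 was also called, 0 of the 13 were higher and FMP48 was lower (-1.31 ± 0.36).

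Of the 13 other glycerol genes, 4 were higher and 0 lower in sfl1-yap6, where 46.6 percent of all genes were called, and 5 were higher and 0 lower in tec1-skn7, where 31.9 percent were. Those in sfl1-yap6 were RGC1, a regulator of the glycerol channel Fps1 (1.51 ± 0.13, adjusted p = 1.22e-13), the acyltransferase GPT2 (1.02 ± 0.22), GUP2 (1.09 ± 0.26) and the dihydroxyacetone kinase DAK1 (0.60 ± 0.17). In sfl1 (24.8 percent of all genes called) 2 were higher, NDE2 (0.76 ± 0.26) and GUP1 (0.53 ± 0.20). In skn7 (37.1 percent) 2 were higher and FPS1 was lower (-0.54 ± 0.16). Components of the Hog1 pathway went both ways: 5 higher and 4 lower of 25 in sfl1-yap6 (46.6 percent of all genes called), where the osmosensor SHO1 was lower (-1.37 ± 0.20), 2 higher and 6 lower in cup9-sfl1 (36.5 percent), and 2 and 2 in sfl1 (24.8 percent). Among the 8 regulators of glycerol use, ADR1 and RSF2 were higher in sok2 (2.05 ± 0.26 and 0.98 ± 0.19) and in sfl1-sok2 (1.40 ± 0.26 and 1.70 ± 0.19). MIG1, the glucose repressor, was lower in sfl1, yap6, sfl1-sok2 and sfl1-yap6 (-1.30 to -0.90), among other strains.

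Marker levels are given beside these results. The summed log2 level of the 6 low-ammonium markers was 64.4 to 66.6 in sfl1-yap6, 61.0 to 62.9 in sfl1-sok2, 61.9 to 64.6 in yap6 and 57.5 to 62.2 in sfl1, the last overlapping with the wild type, against 57.0 to 58.3 in the filamentous wild type. That of the 6 meiosis markers was 23.6 to 24.6 in sfl1-sok2, 23.0 to 23.7 in sfl1-yap6, 22.9 to 23.6 in yap6 and 22.2 to 23.5 in sfl1, against 22.3 to 22.7 in the filamentous wild type. Their part in the glycerol genes' changes was not tested.

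As a description over the 21 group means, which share arrays and scaling within a group, GPD1 correlated with GPP2 at 0.67 and with STL1 at 0.63, and GPP2 with STL1 at 0.72. The genes whose group means most resembled those of GPD1 were AIM17 (Pearson r = 0.94), HUA1 (0.92) and ORM2 (0.90). They were the same 3 over the 20 low-ammonium groups alone, a choice made after seeing the data. For GPP2 they were HSP12 (0.94), AMS1 (0.92) and FMP46 (0.91), and for STL1 HXT5 (0.91), YNL208W (0.89) and NQM1 (0.89). Without the yeast form the 3 for STL1 were others, led by SPS100 (0.89). The best match of GUT2 was PTK2 (0.90), of GPP1 VAS1 (0.85), of GCY1 NVJ2 (0.84), of GUT1 PYC2 (0.82) and of GPD2 YJR154W (0.79). Over the 20 low-ammonium groups the best match was MDM1 for GUT1 (0.87) and MAE1 for GPD2 (0.80). Over those groups GPD1 correlated with GPP2 at 0.62 and with STL1 at 0.61, and GPP2 with STL1 at 0.59.

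The design also asks whether the change of a pair equals the sum of the changes of its 2 single deletions. Of 104 such departures 6 passed, against 2.26 percent over all genes (1.11 percent below the sum), and 4 of them were of GPD1 and lay below the sum. By pair the share of all genes was 2.62 percent in tec1-cup9, 0.0360 in tec1-sfl1, 0.396 in tec1-sok2, 0.108 in cup9-sfl1, 0.827 in cup9-sok2, 0.0539 in sfl1-sok2, 10.0 in sfl1-skn7, 0.0719 in sok2-skn7, 14.3 in sfl1-yap6 and 0.899 in sok2-yap6. It was 0 in tec1-skn7, cup9-skn7 and cup9-yap6. All 13 GPD1 departures were negative, from -2.21 to -0.46. They include -0.85 for the arrays labelled cup9-yap6, in which CUP9 did not read below the wild type. All 13 share the 3 wild-type arrays, each of which enters every departure, and each single deletion enters several. The largest sum of single deletions for GPD1 was 5.30, in sfl1-yap6, whereas its 21 group means spanned 3.36. Whether the range of GPD1 levels limits the change of a pair was not tested.

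GPD1 in sfl1-yap6 changed by 3.09, against a sum of 5.30 for sfl1 and yap6 alone, a departure of -2.21 ± 0.43 (adjusted p = 0.000242). In sok2-yap6 it changed by 1.89 against a sum of 3.99, a departure of -2.11 ± 0.43 (adjusted p = 0.00353), which did not pass in a fit of these groups alone (0.0606). GPD1 read 9.34 in sok2-yap6 replicate 2, against 11.00 and 11.13 in the others, so the size of this departure rests in part on that array. In sfl1-skn7 it changed by 2.32 against a sum of 3.88 (-1.57 ± 0.43, adjusted p = 0.0233), a call lost without sfl1 replicate 3 (0.0945) or skn7 replicate 1 (0.111). In tec1-cup9 it changed by 0.16 against a sum of 1.64 (-1.48 ± 0.38, adjusted p = 0.0207). This call was lost without wild-type replicate 2 (0.0624) or 3 (0.0506) or tec1-cup9 replicate 1 (0.12), and in a fit of these groups alone (0.107). Without the arrays labelled tec1 replicate 1 and cup9 replicate 4 it was -1.50 (0.0474).

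The other departures were both above the sum and both in sfl1-yap6. GPP2 changed by 1.79 there, against a sum of 0.49 (1.30 ± 0.32, adjusted p = 0.00446). GUT2 changed by 1.07 against a sum of -0.01 (1.08 ± 0.38, adjusted p = 0.0456), a call lost when any of 10 arrays was left out (0.0555 to 0.157), under quantile normalization (0.0818) and in a fit of these groups alone (0.113). STL1 in sfl1-sok2 changed by 1.94 against a sum of 0.92, and this departure did not pass (1.02 ± 0.33, adjusted p = 0.181).

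**Figure D3:**
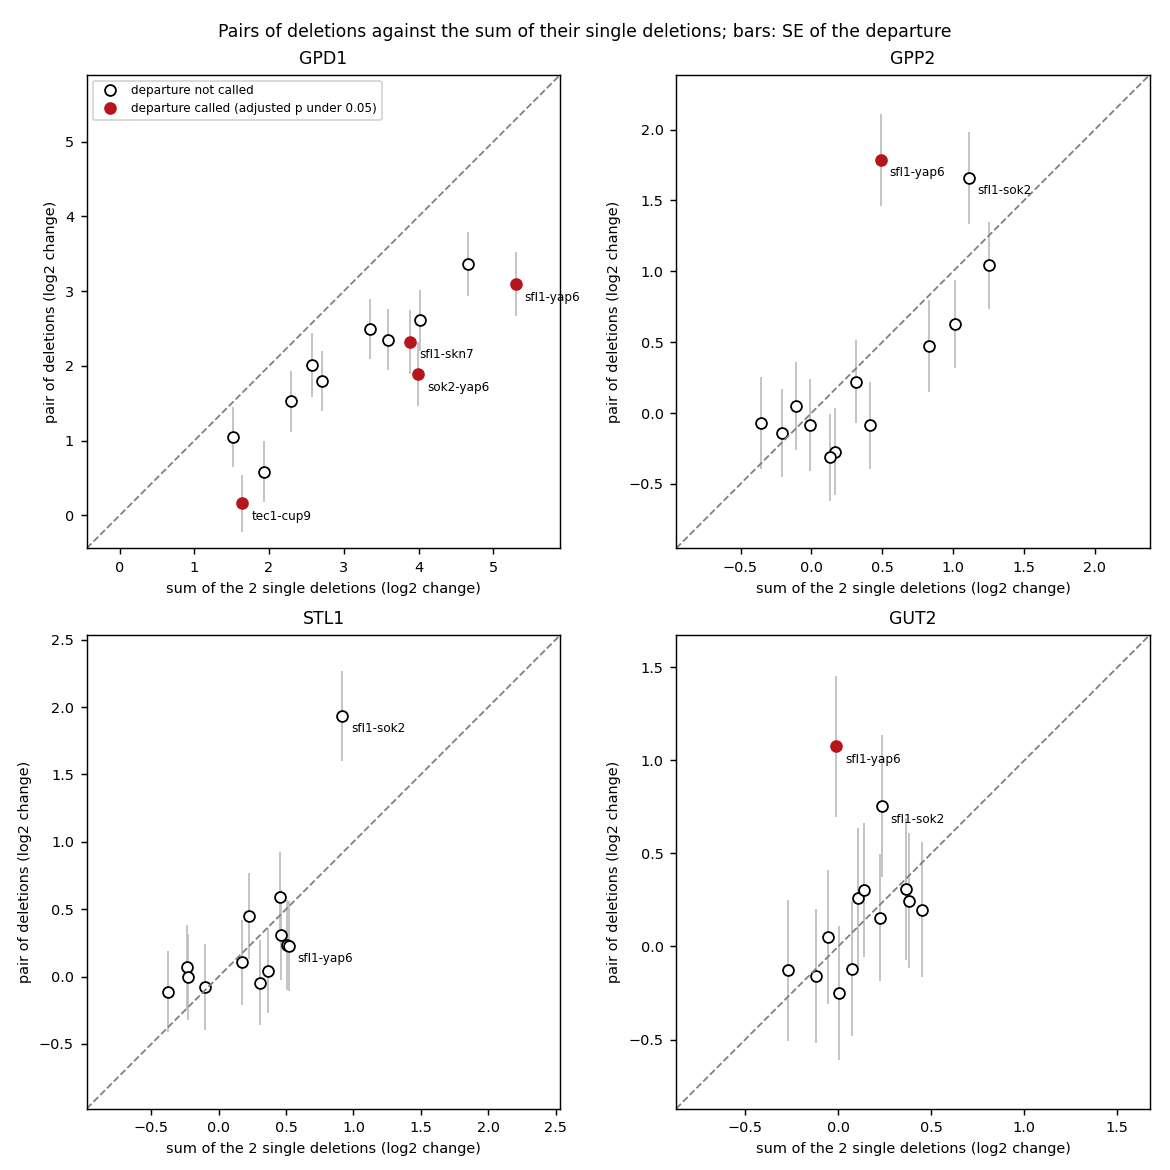
Log2 change of each of the 13 pairs against the filamentous wild type (vertical axis) plotted against the sum of the changes of its single deletions (horizontal axis), for GPD1, GPP2, STL1 and GUT2. The dashed line marks equality, bars are the SE of the departure and red points passed; all 13 GPD1 points lie below the line.

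In SC medium GPD1, STL1, GUT2 and GCY1 were high in the dominant negative RAS2a22 and in arrays labelled ras1 ras2 pde2 without cAMP. These genes were lower at 2 mM than at 0 mM cAMP. At 2 mM their mean intensities were 124, 5, 13.5 and 22, in that order, against 432, 1, 12 and 20.25 in the wild type. Only GPD1 was thus below the wild type there, and that comparison was not tested. Over 8 comparisons 13 of 64 member changes passed, against 4.62 percent over all genes. Values here are deposited intensities, which are comparable between arrays of 1 gene, and changes are on the log2 scale after a floor at 1. Where a group is listed at 1, the size of a change depends on that floor and is not a bound. The fit pools the spread over groups, and STL1 was listed at 1 in 14 of the arrays. Its SE and adjusted p below, also with the RAS2a22 arrays averaged, therefore rest largely on arrays without spread. They do not measure the spread between replicates in which STL1 was detected.

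In RAS2a22, 4 of 8 genes were higher than in the wild type and 0 lower, against 3.76 percent of all genes higher. GPD1 read 1394 and 1581 in RAS2a22, against 553, 493, 353 and 330 in the wild type. Both arrays lay above the wild type (1.83 ± 0.33, adjusted p = 0.00648). The call was lost without RAS2a22 replicate 2 (0.0832), with the RAS2a22 arrays averaged as 1 sample (0.0667), under the replicate block (0.0536) and in a fit of the 2 groups alone (0.0528). With wild-type arrays 1 and 2 alone the change was 1.51 (0.0344) and with arrays 3 and 4 alone 2.15 (0.00294).

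STL1 read 169 and 158 in RAS2a22 and was listed at 1 in all 4 wild-type arrays (7.36 ± 0.22, adjusted p = 1.63e-09). It remained called with the RAS2a22 arrays averaged (2.91e-07). GUT2 read 198 in both RAS2a22 arrays, 1 of the identical pairs of values, against 11, 1, 20 and 16 in the wild type (4.70 ± 0.96, adjusted p = 0.0121). That call was lost without RAS2a22 replicate 1 or 2 (0.0842 and 0.102), with their average (0.103) and in a fit of the 2 groups alone (0.138). It passed with wild-type arrays 1 and 2 alone (5.90, 0.00617) and with arrays 3 and 4 alone (3.49, 0.0024).

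GCY1 read 357 and 337 in RAS2a22, against 22, 40, 11 and 8 in the wild type (4.39 ± 1.02, adjusted p = 0.021). The call was lost without wild-type replicate 3 or 4 or RAS2a22 replicate 1 or 2 (0.0517 to 0.146), with the average (0.151), with the block (0.119) and with wild-type arrays 1 and 2 alone (3.55, 0.113). GPP2 read 303 and 300 in RAS2a22, against 104, 1, 53 and 64 in the wild type. It did not pass (3.64 ± 1.39, adjusted p = 0.143). It passed without wild-type replicate 2, which was listed at 1 (0.00924), with wild-type arrays 3 and 4 alone (2.40, 0.0029) and with a floor at the 25th percentile (2.90, 0.026), but not with wild-type arrays 1 and 2 alone (0.105). GPD2, GPP1 and GUT1 did not pass (adjusted p = 0.787, 0.447 and 0.632).

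Set against each other, the dominant active RAS2v19 and the dominant negative RAS2a22 differed in the same 4 genes (6.62 percent of all genes called, 3.18 percent lower), each lower in RAS2v19. GPD1 read 346 and 271 in RAS2v19, against 1394 and 1581 in RAS2a22 (-2.28 ± 0.38, adjusted p = 0.00514; 0.0436 with the RAS2a22 arrays averaged; 0.0533 in a fit of the 2 groups alone). STL1 was listed at 1 in both RAS2v19 arrays, against 169 and 158 (adjusted p = 8.7e-09; 7.67e-07 averaged), and so was GUT2, against 198 and 198 (adjusted p = 0.00242; 0.024 averaged). GCY1 read 1 and 31 against 357 and 337 (-5.96 ± 1.17, adjusted p = 0.0114), lost with the average (0.0745), without either RAS2a22 array (0.0639 and 0.0722) and in a fit of the 2 groups alone (0.236). GPP2 read 61 to 98 in RAS2v19, against 300 to 303 in RAS2a22, and did not pass. With wild-type arrays 3 and 4 alone in the fit it passed as lower in RAS2v19 (-1.96, adjusted p = 0.0104). These comparisons share the RAS2a22 arrays with the one above.

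Along the cAMP series GPD1 read 1628 and 1467 at 0 mM, 266 at 0.5 mM, 155 at 1 mM, and 109 and 139 at 2 mM. Every array with cAMP lay below both 0 mM arrays. Between 2 mM and 0 mM, 5 of the 8 genes passed, 4 lower and GPP1 higher, against 19.6 percent of all genes (7.54 percent lower and 12.1 percent higher). GPD1 was lower at 2 mM (-3.65 ± 0.38, adjusted p = 6.43e-05), and its slope over the 6 arrays was -1.69 ± 0.30 per mM (adjusted p = 0.00202). The change of strain between 0 mM and the other concentrations cannot be told apart from cAMP.

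STL1 read 6 and 4 at 2 mM, against 51 and 57 at 0 mM (-3.46 ± 0.25, adjusted p = 4.51e-06), and it was listed at 1 at 0.5 and 1 mM. GUT2 read 12 and 15 at 2 mM, against 264 and 218 at 0 mM (-4.16 ± 1.11, adjusted p = 0.0201), with 2 at 0.5 mM and 1 at 1 mM. GCY1 read 24 and 20 at 2 mM, against 681 and 702 at 0 mM (-4.98 ± 1.17, adjusted p = 0.0098), with 71 at 0.5 mM and 29 at 1 mM. For each of these genes the arrays of 2 mM and 0 mM were far apart. The GUT2 and GCY1 calls were nevertheless lost without any one of the 4 arrays (0.079 to 0.109 and 0.0522 to 0.0613). The slope passed for GCY1 (-2.33 ± 0.61 per mM, adjusted p = 0.0189) and not for STL1 or GUT2 (0.246 and 0.371).

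The phosphatases went opposite ways. GPP1 read 1274 and 1110 at 2 mM, against 385 and 384 at 0 mM, with 1111 at 0.5 mM and 1191 at 1 mM, so that the 0 mM arrays alone were low. It was higher at 2 mM (1.63 ± 0.32, adjusted p = 0.00344), with a slope of 0.72 ± 0.22 per mM (adjusted p = 0.0382). GPP2 read 17 and 18 at 2 mM, against 149 and 164 at 0 mM, with 43 at 0.5 mM and 27 at 1 mM. Its intensities were ordered by concentration, yet the change did not pass (-3.16 ± 1.60, adjusted p = 0.231). The change passed with a floor at the 25th percentile (0.0179) and in a fit of the 2 groups alone (0.00599). It also passed with wild-type arrays 3 and 4 alone in the fit (0.000263). GPD2 and GUT1 did not pass (adjusted p = 0.78 and 0.981).

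The mutants of high Ras signalling showed 0 of 8 calls each against the wild type: ira1 (0.234 percent of all genes called), ira1RA (0.0719), ira2 (2.09) and RAS2v19 (0.144), and likewise ira1RA against ira1 (0.126). GPD1 read 188 and 297 in ira1 and 290 and 322 in ira2, below each wild-type array, without passing (-0.82 ± 0.33, adjusted p = 0.357, and -0.50 ± 0.33, adjusted p = 0.487). GCY1 was listed at 1 in both ira2 arrays, against 22, 40, 11 and 8 in the wild type, and came closest (adjusted p = 0.0667; 0.0326 with trend and robust eBayes). GUT2 was at 1 to 4 in all 8 of these mutant arrays. Against wild-type arrays 3 and 4 alone it was lower in ira1, ira1RA, ira2 and RAS2v19 (adjusted p = 0.00186 to 0.0132), and against arrays 1 and 2 alone in none of them (0.486 to 0.809).

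**Figure D4:**
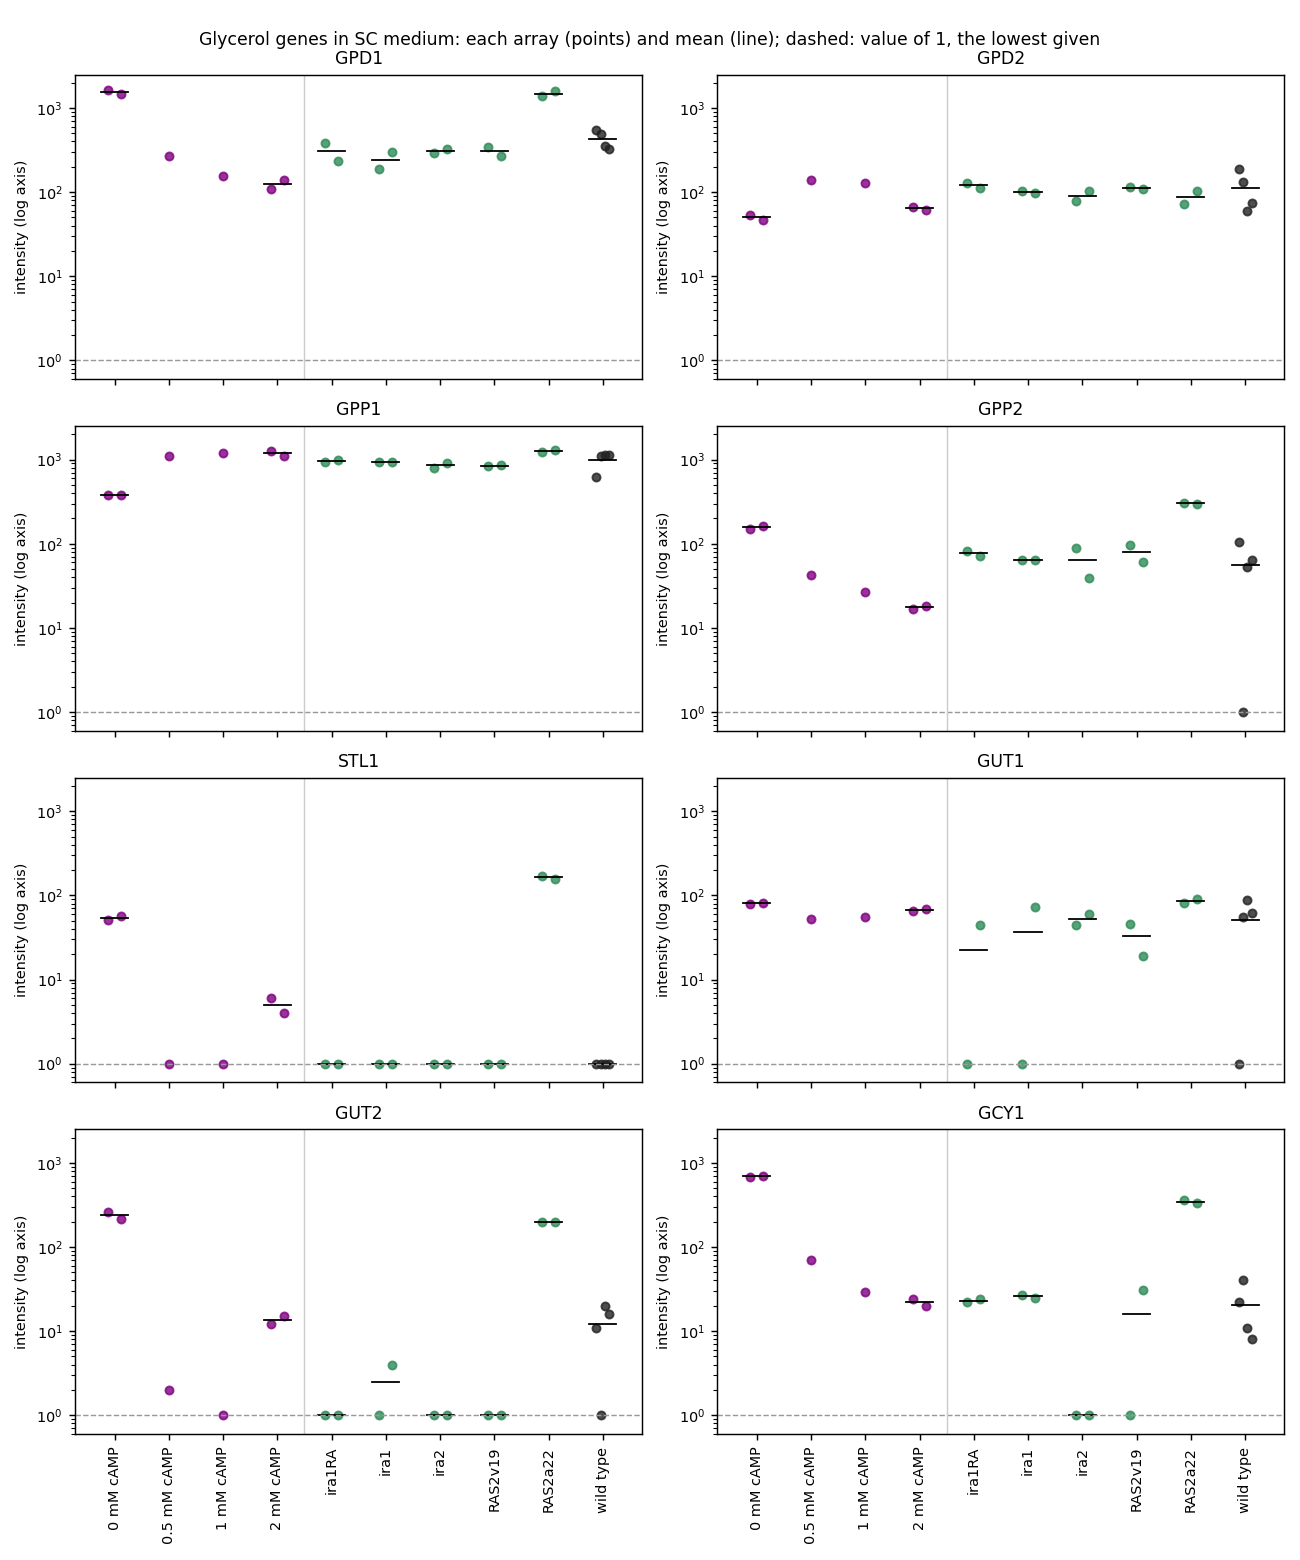
Deposited intensity of each glycerol gene (vertical log axis, 1 panel per gene) in each array (points) from SC medium, for the cAMP series from 0 to 2 mM, the other mutants and the wild type. The dashed line marks an intensity of 1, the lowest deposited; STL1 leaves it only at 0 mM, at 2 mM and in RAS2a22.

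The lists around the pathway moved in the same arrays. Over all genes, 3.76 percent were higher in RAS2a22 than in the wild type. Between 2 mM and 0 mM cAMP, 19.6 percent of all genes were called, 7.54 percent lower and 12.1 percent higher. Of 14 targets of osmotic stress, 9 were higher and 0 lower in RAS2a22 than in the wild type, and 10 were lower and 0 higher at 2 mM than at 0 mM cAMP. HOR7, which was above 1 in every array of the groups compared, read 463 and 478 at 2 mM, against 2262 and 2563 at 0 mM (-2.36 ± 0.25, adjusted p = 6.91e-05). Of the 13 other glycerol genes, 2 were higher in RAS2a22: NDE2, with 132 to 158 against 5 to 19 in the wild type (3.73 ± 0.47, adjusted p = 0.000569), and DAK1, with 224 in both arrays against 46 to 102 (1.81 ± 0.36, adjusted p = 0.0106). The list calls in RAS2a22 are not given with its 2 arrays averaged, although these may not be independent. DAK1 held the same value in both. At 2 mM cAMP DAK1 read 77 to 85, against 317 to 332 at 0 mM (-2.00 ± 0.42, adjusted p = 0.00487). NDE2 was listed at 1 in both 2 mM arrays, against 238 to 297 at 0 mM. The aldo-keto reductase YPR1 was lower (-1.29 ± 0.30, adjusted p = 0.00873) and the acyltransferase SCT1 higher (1.17 ± 0.36, adjusted p = 0.0391) at 2 mM. Of the 6 filament and low-ammonium markers 0 were called in RAS2a22, and FLO11, the flocculin of filaments, was higher at 2 mM than at 0 mM (4.47 ± 0.46). Its part in the changes of the glycerol genes was not tested.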

How the data were processed

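Expression of the 8 genes was read in 90 arrays. The deposited colony values are log2 expression. RMA is the method named, per the submitters' processing notes, and no further scaling was applied (array medians 6.27 to 6.68). The SC table was deposited as intensity on a linear scale, whole numbers between 1 and 16048, with processing not given in the sources used here. Of an array's values 6.77 to 25.6 percent were at 1. These arrays were scaled to a common median (factors 0.967 to 1.04), floored at the 10th percentile and taken to log2. Probe sets pointing to 1 gene were used (5668 of 6739, and 5595 of 6178), with names from RefSeq R64. Where a gene had several, the set with the highest mean was taken.

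Group means of a table were fitted together with limma 3.58.1 under R 4.3.3 (residual degrees of freedom 49 and 10), with two-sided tests and Benjamini-Hochberg adjustment over all 5562 or 5560 genes of a comparison. A gene was called at an adjusted p under 0.05. The alternatives left out each array, blocked by replicate number, dropped genes under the 25th percentile, normalized by quantiles, averaged probe sets, fitted just the compared groups, used trend and robust eBayes, or left out the arrays labelled tec1 replicate 1 and cup9 replicate 4. For SC medium a higher floor (25th percentile) and a slope over cAMP were also planned. The averaged RAS2a22 arrays, the wild-type arrays by pairs and the likeness over 20 groups were chosen after seeing the data. Same-number arrays correlated above 0.1 in every pair between the forms alone (0.113 to 0.254), where the block changed no call.

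Named are the 8 genes in each group, up to 4 called members of each list per comparison with the smallest adjusted p, the 3 genes most alike by Pearson correlation, the deleted genes and the markers. HOR7 and DAK1 are among the list members so chosen. The members and lists were chosen with earlier results of these data known. Nothing says that replicates are separate cultures, so p-values measure the spread between these samples, which may be technical. The number of arrays limits the precision. Promoter motifs were not analysed here.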

Additional observations from a re-analysis of the deposited data

Results flagged for a closer look

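Of 32 sets of 4 to 6 arrays, 6 held an array far from its group. Chance gives about 1 in 20 for normally distributed values, which readings at 1 are not. STL1 in the SC wild type, at 1 in all 4 arrays, is counted among the 32 but could not be flagged. The array labelled cup9 replicate 2 read 10.83 for GPD1, above the other cup9 arrays. GPD2 read 10.04 in the array labelled tec1 replicate 4, above its group. STL1 read 4.30 in yeast-form replicate 4, below the other yeast-form arrays. In SC medium, wild-type replicate 1 read 620 for GPP1 and 1 for GUT1, and wild-type replicate 2 read 1 for GPP2, each below the other 3 wild-type arrays.

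The pairs whose change differed from the sum of the single deletions by a test of that difference were tec1-cup9 (GPD1, -1.48), sfl1-skn7 (GPD1, -1.57), sfl1-yap6 (GPD1, -2.21; GPP2, 1.30; GUT2, 1.08) and sok2-yap6 (GPD1, -2.11). They share the 3 filamentous wild-type arrays.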

How the results depend on the processing

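Of 54 called member results, 30 remained called under every setting run and 0 reversed. Leaving out 1 array at a time gave 3 to 4 calls between the forms (4 with all arrays), 4 to 6 in the single deletions (5), 20 to 27 in the pairs (26), 4 to 6 for the departures (6) and 9 to 18 in SC medium (13). With the replicate block the counts were 4, 5, 25, 6 and 11. In every comparison, that of the forms included, the labels give arrays only a shared replicate number, so the block is no known pairing. The departures fell to 3 in fits of only the groups compared, which hold fewer samples. In SC medium the count was 8 with genes under the 25th percentile left out, since STL1 and GUT2 are among those, 9 with the RAS2a22 arrays averaged into 1 sample, 12 with wild-type arrays 1 and 2 alone and 20 with arrays 3 and 4 alone; the cause of the last was not tested. Where a group was left with 1 array, its spread was taken to be that of the remaining groups. The floor at 1 limits what can be said of STL1, GUT2, GCY1 and GUT1 in SC medium.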
